A study of Homo sapiens with 12 samples.

Results

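The genes described here are STAT2, STAT3, STAT6, IRF1, IRF2, IRF7, IRF9 and SOCS3, which are 3 signal transducers and activators of transcription (STATs), 4 interferon regulatory factors (IRFs) and 1 suppressor of cytokine signaling. They were chosen by symbol, 8 of the 60591 genes in the count table, and all 8 were among the 19108 genes that passed a filter on low counts, IRF7 only through its PC9 libraries. mRNA was sequenced from PC9 and H1650, established non-small cell lung cancer (NSCLC) lines labelled wild-type and reported to carry the same activating deletion in the epidermal growth factor receptor (EGFR). Cells in 0.1% DMSO were taken at 0 h (T0), and other cells were taken 36 h after the addition of 10 μM erlotinib, a first-generation EGFR inhibitor, or 0.1 μM osimertinib, a third-generation one. Every combination of line and treatment (6 groups) was sequenced as 2 replicate libraries, 12 in all, from cells grown in RPMI with serum. Each line stands for 1 tumor, and the study describes the replicates as biological. The p-values measure the spread between replicate libraries, estimated over the 6 groups of both lines together with information from other genes. They do not measure a spread between tumors.

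STAT proteins wait in the cytoplasm, are phosphorylated by JAK kinases at activated cytokine receptors, and move to the nucleus to bind DNA. STAT2 and IRF9 are subunits of ISGF3, the complex that type I and type III interferons use to switch on genes through the interferon-stimulated response element. STAT3 serves receptors that share the gp130 chain, such as the interleukin-6 receptor, and can also act downstream of EGFR. STAT6 serves interleukin-4 and interleukin-13. IRF1 activates genes of the interferon-gamma response and of antigen presentation, IRF2 binds the same DNA elements and can counteract IRF1, and IRF7 drives interferon genes once nucleic acid sensors activate it. SOCS3 is induced by STAT3 and in turn blocks gp130 and JAK signaling. mRNA levels do not report the phosphorylation that activates STATs.

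Between 17961765 and 26346187 reads per library were assigned to genes. Levels are given as CPM, the read count relative to the depth of the library, scaled between libraries by the trimmed mean of M values (TMM), with the SD of 2 libraries where an error is given. A count of 0 allows up to 3 reads, or 0.116 to 0.168 CPM depending on the library, and covers counting error only. Mitochondrial genes took 4.36% to 7.20% of the reads. The 8 epithelial markers were present in every library, at a summed 10430 to 14617 CPM in PC9 and 6613 to 10183 CPM in H1650 cells. The 14 blood, endothelial and fibroblast markers summed to 27.6 to 75.2 CPM in PC9 and 32.9 to 71.5 CPM in H1650 libraries. Among them, MS4A1 had 0 reads in all 12, and the highest reads for CD3E and PTPRC were 4 and 5. Others of the list were read, COL1A1 at 214 to 968 reads per library, CSF1R at 27 to 1364 and ITGAM at 0 to 395. No vehicle library of 36 h was analysed here, so each drug change below also holds whatever 36 h in culture changes. In bulk RNA, fewer cells with a transcript and less transcript per cell cannot be told apart.

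In PC9 cells, STAT2, STAT3, STAT6, IRF1, IRF2, IRF7 and IRF9 rose and SOCS3 fell with erlotinib and also with osimertinib (adjusted p under 0.05, edgeR quasi-likelihood test). Among all tested genes, 32.7% were called higher and 29.1% lower after erlotinib in PC9, and 32.7% and 28.7% after osimertinib. In H1650 cells, 5 of the 8 rose with erlotinib (STAT2, STAT6, IRF1, IRF2 and IRF9), STAT3 and SOCS3 fell, and IRF7 was not called, where 18.0% of all tested genes were called higher and 18.5% lower. With osimertinib in H1650 cells, 6 of the 8 rose (the same 5 and STAT3) and SOCS3 and IRF7 were not called, where 17.8% of all tested genes were called higher and 17.9% lower. STAT2, STAT6, IRF1, IRF2 and IRF9 were thus called higher in each of the 4 comparisons with T0. The share of all tested genes called higher in all 4 was not counted. The IRF9 call with osimertinib in H1650 was lost with DESeq2. Both STAT3 calls in H1650 were lost in some fits that left out a library, and the osimertinib one also with RLE scaling, as given below. Changes over 2-fold, in either direction, were seen for 4 of the 8 genes with each drug in PC9 cells, and for 1 and 2 of them with erlotinib and osimertinib in H1650 cells, counting only called genes. Of all tested genes, 30.8% and 31.2% were called and changed over 2-fold with erlotinib and osimertinib in PC9 cells, and 8.12% and 7.30% in H1650 cells.

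**Figure D1:**
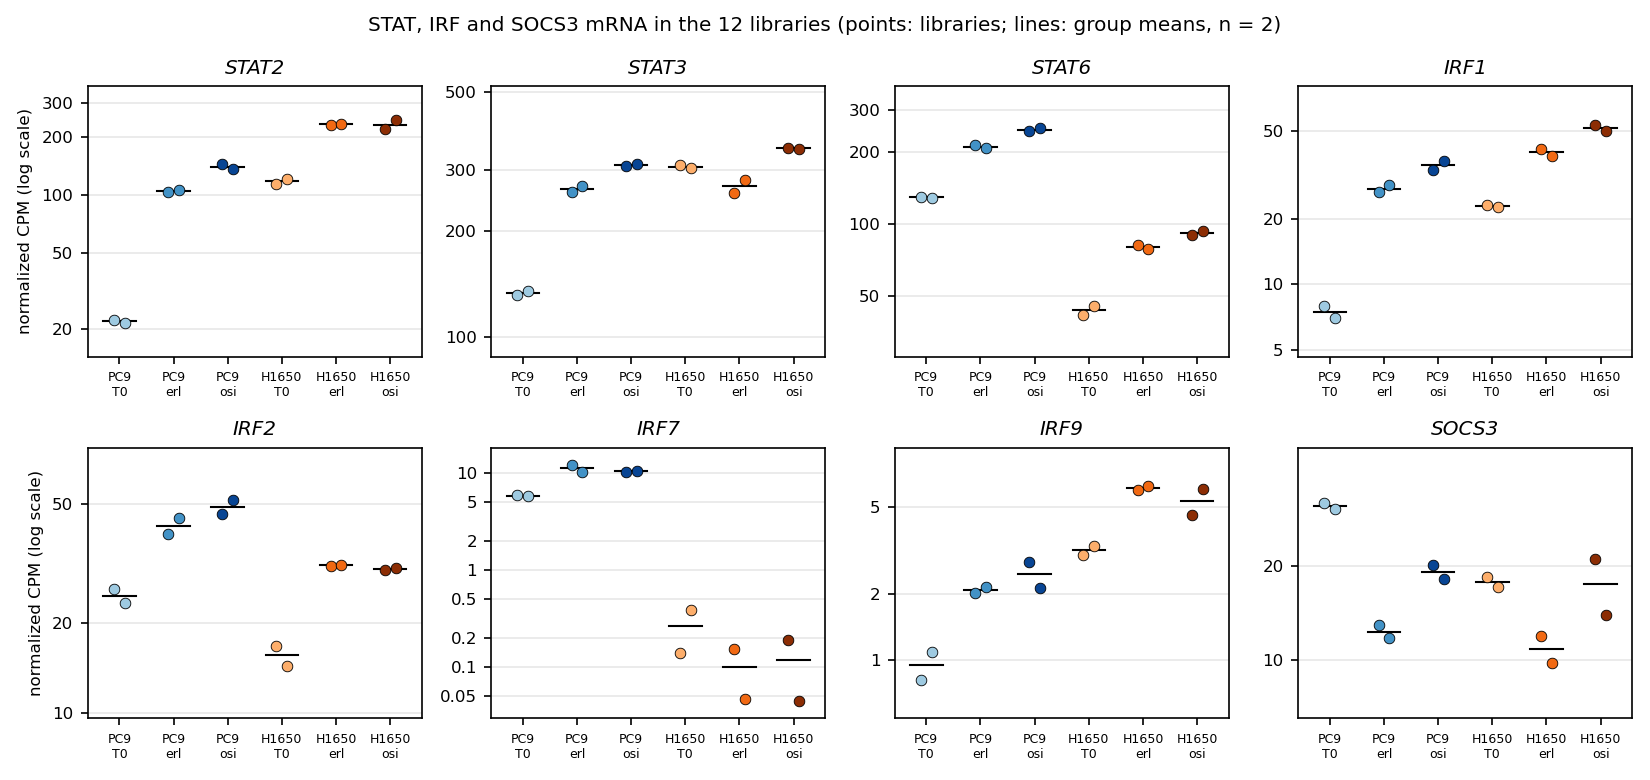
Normalized CPM (log axis) of the 8 genes in the 12 libraries, in order of line and treatment, with a point per library and a line at each group mean (n = 2). The PC9 T0 libraries are the lowest of the 12 for STAT2, STAT3, IRF1 and IRF9 and the highest for SOCS3, and the 6 H1650 libraries lie far below the 6 PC9 libraries for IRF7.

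STAT2 changed most of the 8 genes in PC9 cells. Its gene lies on chromosome 12 (56341597 to 56360155, minus strand, GENCODE 29 on GRCh38). In PC9 cells STAT2 stood at 22.4 and 21.6 CPM at T0, 103 and 106 after erlotinib, and 144 and 136 after osimertinib. In H1650 cells it stood at 114 and 120 CPM at T0, 231 and 234 after erlotinib, and 218 and 244 after osimertinib. Both treated PC9 groups lay well above their T0 libraries without overlap, and the erlotinib libraries of PC9 lay just below the T0 libraries of H1650. The log2 fold change in PC9 was 2.25 ± 0.0847 (SE) after erlotinib, or 4.75-fold (adjusted p = 7.22e-19), and 2.67 ± 0.0850 after osimertinib, or 6.36-fold (adjusted p = 1.72e-20). The H1650 changes were 0.99 ± 0.0742 with erlotinib, or 1.99-fold (adjusted p = 2.56e-11), and 0.98 ± 0.0741 with osimertinib, or 1.98-fold (adjusted p = 3.36e-11).

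STAT3 moved differently in the lines. STAT3 lies on chromosome 17 (42313324 to 42388568, minus strand). In PC9 cells its level was 132 and 135 CPM at T0, 259 and 269 after erlotinib, and 306 and 312 after osimertinib. In H1650 cells it was 309 and 302 CPM at T0, 258 and 280 after erlotinib, and 346 and 344 after osimertinib. Osimertinib libraries of PC9 thus overlapped the T0 libraries of H1650. STAT3 rose in PC9 by 0.98 ± 0.0693 on the log2 scale after erlotinib (adjusted p = 7.65e-13) and 1.21 ± 0.0696 after osimertinib (adjusted p = 7.87e-15). The H1650 changes were small and opposite in sign, -0.19 ± 0.0677 with erlotinib (adjusted p = 0.0322) and 0.17 ± 0.0674 with osimertinib (adjusted p = 0.0460). The erlotinib call was lost without either H1650 T0 library (-0.17, adjusted p = 0.156 without replicate 1, and -0.20, adjusted p = 0.0837 without replicate 2) or without erlotinib replicate 1 (-0.12, adjusted p = 0.321). The osimertinib call was lost in 8 of the 12 fits that left out a library, among them all 4 that left out an H1650 T0 or osimertinib library (0.16 to 0.19, adjusted p of 0.122 to 0.207) and the 4 without a PC9 T0 or erlotinib library (adjusted p of 0.0523 to 0.0709). It was also lost with RLE scaling (0.16, adjusted p = 0.0809), with no filter beyond 1 count (0.16, adjusted p = 0.0970) and with each line fitted on its own (0.17, adjusted p = 0.0506).

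STAT6 rose in both lines by similar amounts, from a level that was higher in PC9. The gene lies on chromosome 12 (57095408 to 57132139, minus strand), where 69 and 59 exon bases are shared with the opposite-strand genes NAB2 and LRP1. In PC9 cells STAT6 was at 130 and 129 CPM at T0, 215 and 207 after erlotinib, and 245 and 252 after osimertinib. In H1650 cells it was at 41.6 and 45.3 CPM at T0, 81.4 and 78.4 after erlotinib, and 90.0 and 93.0 after osimertinib. No treated library overlapped the T0 libraries of its line. In PC9 the log2 fold change was 0.70 ± 0.0710 with erlotinib (adjusted p = 1.28e-09) and 0.94 ± 0.0713 with osimertinib (adjusted p = 3.38e-12). For H1650 the values were 0.88 ± 0.0760 with erlotinib (adjusted p = 4.25e-10) and 1.07 ± 0.0756 with osimertinib (adjusted p = 8.75e-12).

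IRF1 was the second of the 8 genes by size of change in PC9. The gene lies on chromosome 5 (132481609 to 132490798, minus strand) and shares 1716 exon bases with the opposite-strand lncRNA gene IRF1-AS1, which held 19 to 124 reads per library against 142 to 1126 for IRF1. The strandedness of the counting is not given in the sources used here, so reads of these genes cannot be told apart with certainty. In PC9 cells IRF1 was at 7.97 and 7.01 CPM at T0, 26.5 and 28.3 after erlotinib, and 33.2 and 36.7 after osimertinib. In H1650 cells it was at 23.2 and 22.5 CPM at T0, 41.6 and 38.7 after erlotinib, and 53.7 and 50.2 after osimertinib. Groups of a line did not overlap, and osimertinib libraries were the highest in each line. PC9 cells showed a log2 fold change of 1.87 ± 0.115 with erlotinib (adjusted p = 3.92e-14) and 2.22 ± 0.115 with osimertinib (adjusted p = 7.51e-16). H1650 cells showed 0.81 ± 0.0979 with erlotinib (adjusted p = 1.53e-07) and 1.18 ± 0.0966 with osimertinib (adjusted p = 1.46e-10).

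Promoter sequence bears on how STATs and IRFs can act on one another's genes, and the 300 bases around the RefSeq start (250 before to 50 after, GRCh38.p14) were searched on both strands. Promoters of 6 of the 8 genes were in the table used (SOCS3 with 2 entries), and those of IRF2 and IRF7 were not searched. The gamma-activated site that STAT dimers bind (TTCNNNGAA) matched once in IRF1 and once in IRF9, and in 7.66% of all 35116 promoters. The core of the interferon-stimulated response element (GAAANNGAA), which ISGF3 and IRFs bind and 8.11% of all promoters hold, had 0 matches in these 6 genes, which says only that these letters are not in the windows. The 2 matches are shown because they are the only ones among these genes, with the motif in capitals and 10 bases on either side, read 5′ to 3′ on the strand of the gene.
IRF1, chr5:132490879-132490907, minus strand, motif at -124 to -116 from the start: acagcctgatTTCCCCGAAatgacggcac
IRF9, chr14:24161192-24161220, plus strand, motif at -63 to -55 from the start: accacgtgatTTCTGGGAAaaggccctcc
A match of letters is a description and was not tested for binding. The IRF9 window falls inside an untranslated exon of a longer GENCODE 29 transcript of IRF9.

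IRF2, which shares DNA elements with IRF1, rose by 1.72-fold to 2.01-fold in the 4 comparisons with T0. IRF2 is encoded on chromosome 4 (184387713 to 184474580, minus strand). Its levels in PC9 cells were 25.8 and 23.3 CPM at T0, 39.5 and 44.7 after erlotinib, and 46.0 and 51.4 after osimertinib. In H1650 cells they were 16.7 and 14.4 CPM at T0, 30.9 and 31.2 after erlotinib, and 29.9 and 30.4 after osimertinib. T0 libraries were the lowest in each line. On the log2 scale IRF2 rose in PC9 by 0.78 ± 0.102 with erlotinib (adjusted p = 1.43e-07) and by 0.99 ± 0.102 with osimertinib (adjusted p = 1.95e-09). Its rise in H1650 was 1.00 ± 0.107 with erlotinib (adjusted p = 2.01e-08) and 0.96 ± 0.107 with osimertinib (adjusted p = 4.33e-08). Per kilobase of the deposited gene length, the ratio of IRF1 to IRF2 in PC9 libraries was 0.122 and 0.119 at T0, 0.265 and 0.250 after erlotinib, and 0.285 and 0.282 after osimertinib. In H1650 libraries it was 0.548 and 0.620 at T0, 0.532 and 0.490 after erlotinib, and 0.710 and 0.651 after osimertinib. IRF1 thus stayed below IRF2 per length in every library, and the 6 PC9 ratios lay below the 6 H1650 ratios. The order of the 2 genes depends on the deposited lengths, 7778 bases for IRF1 and 3070 for IRF2. In CPM without length, mean IRF1 was above IRF2 in H1650 at T0 (22.9 against 15.5). It was also above IRF2 there after erlotinib (40.2 against 31.0) and osimertinib (51.9 against 30.2), and below it in every PC9 group. These ratios are a description, with no test.

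IRF7 was read mainly in PC9 cells. IRF7 is encoded on chromosome 11 (612553 to 615999, minus strand). PC9 libraries held 118 and 116 reads at T0 (5.95 and 5.73 CPM), 272 and 263 after erlotinib (12.2 and 10.3 CPM), and 223 and 186 after osimertinib (10.3 and 10.4 CPM). H1650 libraries held 3 and 10 reads at T0, 3 and 1 after erlotinib, and 4 and 1 after osimertinib, so 4 of the 6 H1650 libraries were at or under the limit that a count of 0 allows. IRF7 rose in PC9 by 0.94 ± 0.201 on the log2 scale with erlotinib (adjusted p = 0.000199) and by 0.83 ± 0.205 with osimertinib (adjusted p = 0.000912). No fold change with drug is given for H1650, where neither drug was called against T0 (adjusted p = 0.160 and 0.218). Over pooled reads of each group, PC9 exceeded H1650 by 21.3 times at T0 (234 against 13 reads, exact Poisson 95% interval 12.2 to 40.5), 114 times after erlotinib (535 against 4 reads, 44.3 to 420) and 90.0 times after osimertinib (409 against 5 reads, 38.2 to 279). The intervals cover counting error only.

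IRF9, the DNA-binding subunit of ISGF3, had the lowest level per kilobase of the 8 genes in PC9 cells at T0 and rose in each comparison. The gene lies on chromosome 14 (24161053 to 24166565, plus strand) and shares 1838 exon bases with AL136295.5, a gene of the same strand that held 8 to 27 reads per library against 16 to 137 for IRF9. Reads in shared exons cannot be assigned to either gene by position, so the level of IRF9 is uncertain. PC9 libraries held 0.807 and 1.09 CPM at T0, 2.02 and 2.15 after erlotinib, and 2.82 and 2.13 after osimertinib. H1650 libraries held 3.03 and 3.32 CPM at T0, 5.99 and 6.29 after erlotinib, and 4.63 and 6.10 after osimertinib. Treated libraries lay above the T0 libraries of their line, while the drug groups overlapped each other in both lines. The log2 fold change of IRF9 in PC9 was 1.13 ± 0.314 with erlotinib (adjusted p = 0.00269) and 1.39 ± 0.313 with osimertinib (adjusted p = 0.000346). Erlotinib gave 0.95 ± 0.230 in H1650 (adjusted p = 0.00164), and osimertinib gave 0.76 ± 0.231 there (adjusted p = 0.0111). The osimertinib call in H1650 was lost without H1650 T0 replicate 1 (0.70, adjusted p = 0.0656), without osimertinib replicate 2 (0.54, adjusted p = 0.177) and with DESeq2 (0.74, adjusted p = 0.0580). Per kilobase, STAT2 exceeded IRF9 in every library, with ratios of 16.1 and 11.5 in PC9 at T0, 29.5 and 28.5 after erlotinib and 29.5 and 36.8 after osimertinib. In H1650 the ratios were 21.7 and 21.0, 22.3 and 21.5, and 27.2 and 23.2, so the groups lay closer together than in PC9. They rest on the uncertain IRF9 counts and were not tested.

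**Figure D2:**
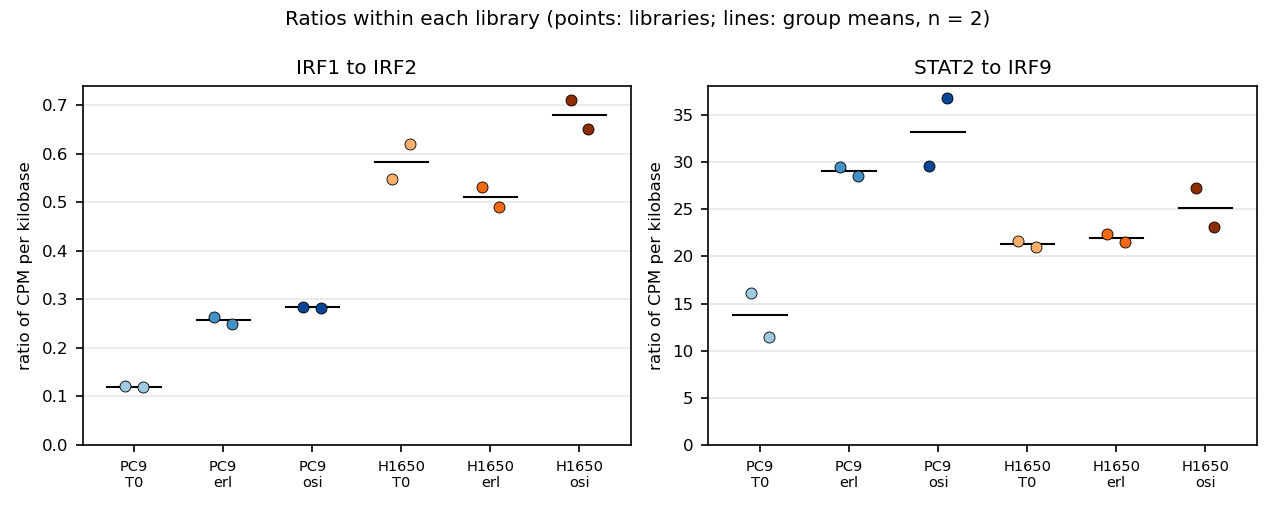
Ratio of IRF1 to IRF2 (left) and of STAT2 to IRF9 (right) in CPM per kilobase of deposited gene length, with a point per library and a line at each group mean (n = 2). The IRF1 to IRF2 ratio is 0.119 to 0.285 in PC9 and 0.490 to 0.710 in H1650 libraries, and the lowest STAT2 to IRF9 ratios, 11.5 and 16.1, are those of PC9 at T0.

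SOCS3, the feedback inhibitor, was the only one of the 8 genes that fell in PC9 cells. SOCS3 is encoded on chromosome 17 (78356778 to 78360077, minus strand). PC9 libraries held 31.7 and 30.4 CPM at T0, 12.9 and 11.8 after erlotinib, and 20.1 and 18.1 after osimertinib, with no overlap between groups. H1650 libraries held 18.4 and 17.1 CPM at T0, 11.9 and 9.82 after erlotinib, and 21.0 and 13.9 after osimertinib, where the osimertinib libraries lay on either side of the T0 libraries. The log2 fold change in PC9 was -1.33 ± 0.142 with erlotinib (adjusted p = 3.93e-09) and -0.70 ± 0.139 with osimertinib (adjusted p = 8.04e-05). In H1650 it was -0.71 ± 0.150 with erlotinib (adjusted p = 0.000403) and -0.03 with osimertinib (95% interval -0.32 to 0.26, adjusted p = 0.917).

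**Figure D3:**
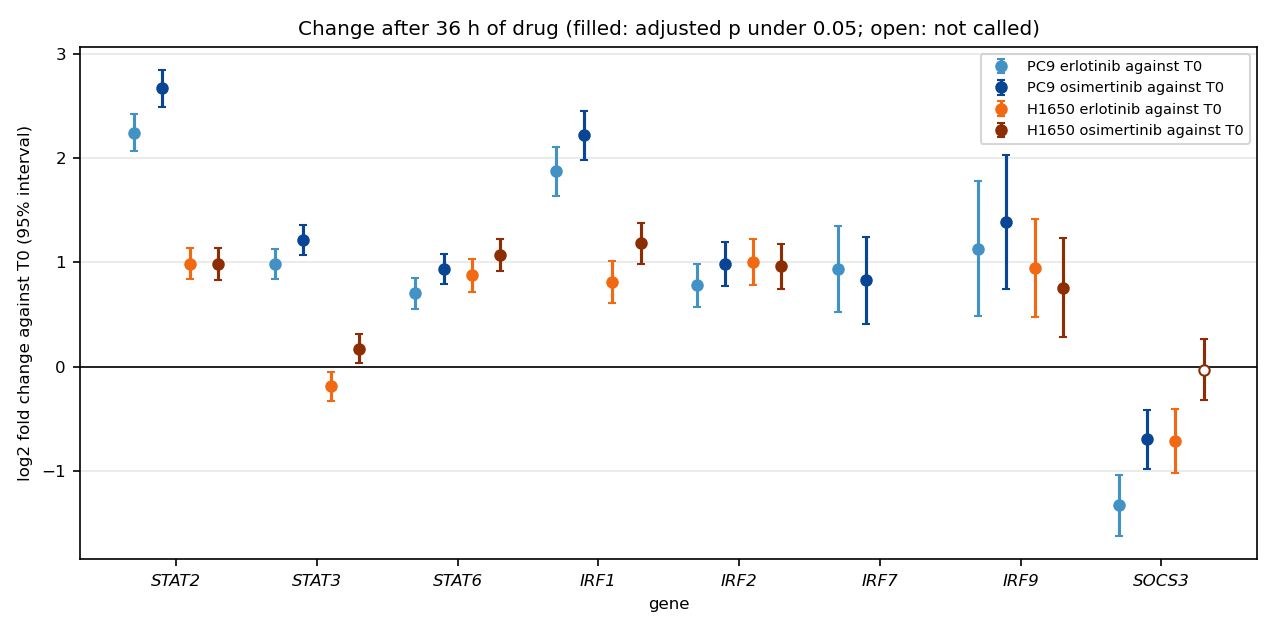
Log2 fold change against T0 with its 95% interval for each gene, line and drug (filled points are called at adjusted p under 0.05, open points are not), IRF7 in H1650 left out for its few reads. STAT2 and IRF1 are the highest in PC9 (2.25 and 1.87 with erlotinib, 2.67 and 2.22 with osimertinib), STAT3 is near 0 in H1650, and SOCS3 is below 0 with an interval that reaches 0 only for osimertinib in H1650.

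Whether the lines differed in their response was tested by the interaction of drug and line, in which the PC9 change was subtracted from the H1650 change. With erlotinib, the change of STAT2 was smaller in H1650, with a log2 difference of -1.26 ± 0.112 (adjusted p = 3.05e-10), and so were those of STAT3 (-1.17 ± 0.0968, adjusted p = 7.07e-11) and IRF1 (-1.06 ± 0.152, adjusted p = 1.71e-06). With osimertinib, the differences were -1.69 ± 0.112 for STAT2 (adjusted p = 6.49e-13), -1.04 ± 0.0966 for STAT3 (adjusted p = 6.77e-10) and -1.04 ± 0.151 for IRF1 (adjusted p = 1.98e-06). SOCS3 was called in the other direction, at 0.62 ± 0.207 with erlotinib (adjusted p = 0.0175) and 0.67 ± 0.199 with osimertinib (adjusted p = 0.00756). All these differences are on the log2 scale, and STAT2, STAT3 and IRF1 started higher in H1650. In mean CPM, STAT2 went from 117 to 233 with erlotinib in H1650 and from 22.0 to 104 in PC9, so this rise in CPM was not smaller in H1650. With osimertinib it reached 231 in H1650 and 140 in PC9, a rise slightly smaller in H1650. IRF1 went from 22.9 to 40.2 (erlotinib) and 51.9 (osimertinib) in H1650 and from 7.49 to 27.4 and 35.0 in PC9, a rise smaller in H1650 with erlotinib only. STAT3 went from 306 to 269 and 345 in H1650 and from 133 to 264 and 309 in PC9, a smaller change in H1650 with each drug. No difference is given for IRF7, whose H1650 libraries held 1 to 10 reads. STAT6, IRF2 and IRF9 were not called with either drug, with 95% intervals of -0.04 to 0.39, -0.08 to 0.53 and -0.98 to 0.61 for erlotinib and -0.08 to 0.35, -0.33 to 0.28 and -1.44 to 0.17 for osimertinib, so those of IRF9 leave room for sizeable differences. Of the 7 genes other than IRF7, 1 was called higher and 3 lower with each drug, where 21.1% of all tested genes were called higher and 19.8% lower with erlotinib, and 21.5% and 20.5% with osimertinib. The calls for STAT2, STAT3 and IRF1 held in every fit that left out 1 library. SOCS3 lost its erlotinib call without PC9 erlotinib replicate 2 (0.55, adjusted p = 0.0548), H1650 T0 replicate 2 (0.57, adjusted p = 0.0504) or H1650 erlotinib replicate 1 (0.50, adjusted p = 0.0892), and its osimertinib call without H1650 osimertinib replicate 1 (0.36, adjusted p = 0.152).

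The treatments were also set against each other, at 10 μM erlotinib and 0.1 μM osimertinib, doses that differ, so the comparison is between these treatments and not between the compounds. In PC9 cells, 5 of the 8 genes were higher after osimertinib and 0 lower (edgeR, 0 lower also at an unadjusted p under 0.05 and by DESeq2), against 10.1% and 6.41% of all tested genes. They were SOCS3 (0.63 ± 0.147, adjusted p = 0.00274), STAT2 (0.42 ± 0.0748, adjusted p = 0.000146), IRF1 (0.35 ± 0.0974, adjusted p = 0.0127), STAT6 (0.24 ± 0.0699, adjusted p = 0.0187) and STAT3 (0.23 ± 0.0677, adjusted p = 0.0184). The count was 2 without PC9 erlotinib replicate 1, 3 without PC9 osimertinib replicate 1 and 2 without PC9 osimertinib replicate 2, and STAT6 also lost its call without PC9 erlotinib replicate 2 (adjusted p = 0.128). In H1650 cells, 3 of the 8 genes were higher after osimertinib and 0 lower (by the same 3 counts), against 5.02% and 3.73% of all tested genes. The count was 4 with a replicate block, where STAT6 gained a call (0.20, adjusted p = 0.0296), and with DESeq2 (0.21, adjusted p = 0.0498). The 3 genes called in the main fit were SOCS3 (0.68 ± 0.151, adjusted p = 0.00331), IRF1 (0.37 ± 0.0935, adjusted p = 0.0103) and STAT3 (0.36 ± 0.0677, adjusted p = 0.000618). Only STAT3 was called without H1650 erlotinib replicate 2 or without H1650 osimertinib replicate 1, where SOCS3 stood at 0.55 (adjusted p = 0.0714) and 0.37 (adjusted p = 0.259). STAT2 did not separate the treatments in H1650, at -0.01 with a 95% interval of -0.16 to 0.14.

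Between the lines at T0, STAT2, STAT3, IRF1 and IRF9 were higher in H1650 and STAT6, IRF2 and SOCS3 were lower, 4 and 3 of the 7 genes other than IRF7, where 35.8% of all tested genes were called higher and 33.8% lower. The log2 differences were 2.41 ± 0.0847 for STAT2 (adjusted p = 8.78e-20), 1.74 ± 0.298 for IRF9 (adjusted p = 8.93e-06), 1.61 ± 0.117 for IRF1 (adjusted p = 1.08e-12) and 1.20 ± 0.0694 for STAT3 (adjusted p = 8.23e-15). They were -1.58 ± 0.0756 for STAT6 (adjusted p = 1.14e-16), -0.80 ± 0.138 for SOCS3 (adjusted p = 9.10e-06) and -0.67 ± 0.109 for IRF2 (adjusted p = 4.96e-06). After erlotinib, 3 were higher in H1650 (STAT2, IRF1 and IRF9), 2 lower (STAT6 and IRF2) and STAT3 and SOCS3 were not called, where 36.7% of all tested genes were called higher and 35.4% lower. After osimertinib, 4 were higher (the same 3 and STAT3), 2 lower (STAT6 and IRF2) and SOCS3 was not called, against 36.6% and 35.0% of all tested genes. The difference in STAT2 was 1.15 ± 0.0746 after erlotinib (adjusted p = 7.46e-14) and 0.72 ± 0.0739 after osimertinib (adjusted p = 1.14e-09), and that in IRF1 was 0.55 ± 0.0964 (adjusted p = 1.22e-05) and 0.57 ± 0.0946 (adjusted p = 5.11e-06). IRF7 entered the tested genes through PC9, where it is high, so its difference between the lines is given only by the read ratios above. STAT3 stood at 0.03 (95% interval -0.11 to 0.17) after erlotinib and 0.16 ± 0.0676 after osimertinib (adjusted p = 0.0393), a call lost with DESeq2 (adjusted p = 0.0675), RLE scaling (0.0919), upper quartile scaling (0.101) and in 7 of the 12 fits that left out a library (adjusted p of 0.0556 to 0.142). SOCS3 after osimertinib stood at -0.14 (95% interval -0.43 to 0.16), and at -0.46 with a call (adjusted p = 0.0105) without H1650 osimertinib replicate 1.

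Ordered by mean level, STAT2 was highest in H1650 after erlotinib and after osimertinib, 2 groups that overlapped, and lowest in PC9 at T0. STAT6 kept every PC9 group above every H1650 group, and each neighbour in its order was separate, with osimertinib above erlotinib above T0 in each line. The order of IRF1 was H1650 osimertinib, H1650 erlotinib, PC9 osimertinib, PC9 erlotinib, H1650 T0 and PC9 T0, with no overlap between neighbours. For STAT3, PC9 osimertinib overlapped H1650 T0, and H1650 erlotinib overlapped PC9 erlotinib. For SOCS3, PC9 osimertinib, H1650 T0 and H1650 osimertinib overlapped one another in that order below PC9 T0. Compared per kilobase, STAT6 was the highest of the 8 genes in PC9 at T0 (17.8 ± 0.125 CPM per kilobase, SD), followed by STAT3 (15.1 ± 0.254), SOCS3 (11.3 ± 0.337), IRF2, STAT2 (3.55 ± 0.0985), IRF7 (2.23 ± 0.0604), IRF1 (0.963 ± 0.0869) and IRF9 (0.264 ± 0.0551). In H1650 at T0, STAT3 (34.7 ± 0.542) was the highest, and STAT2 (18.9 ± 0.761) stood above SOCS3 (6.50 ± 0.334) and STAT6 (5.95 ± 0.362), 2 genes whose order rests on a small difference. In H1650 after erlotinib, STAT2 reached 37.5 ± 0.262 and STAT3 30.5 ± 1.80 CPM per kilobase. Orders between genes per kilobase depend on the deposited gene lengths.

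Genes around these factors were counted in lists written from general knowledge, and each count is read against the share of all tested genes called in the same direction. Of 8 interferon ligand genes (IFNA1, IFNB1, IFNE, IFNK, IFNG, IFNL1, IFNL2 and IFNL3), 2 passed the filter (IFNE and IFNL1), and 0 were called in any comparison with T0 by edgeR, 0 at an unadjusted p under 0.05 and 0 by DESeq2. Their summed reads were 13 to 19 in the PC9 libraries and 25 to 42 in the H1650 libraries. In H1650 they were 31 and 31 at T0, 35 and 42 after erlotinib, and 25 and 32 after osimertinib. Both IFNB1 and IFNL1 had 0 reads in all 6 PC9 libraries. In this list 6 genes were not tested, and IFNE held only 6 to 17 reads per library, so the 0 called is largely fixed by low reads. Of all tested genes, 32.7% rose with each drug in PC9, and 29.1% and 28.7% fell with erlotinib and osimertinib. In H1650, 18.0% and 17.8% rose and 18.5% and 17.9% fell. Of 8 gp130 and IL-4 family ligands, 5 were tested. LIF, a gp130 ligand, fell with both drugs in both lines, from 69.7 ± 6.26 to 20.6 ± 4.35 and 25.6 ± 2.84 CPM in PC9 (SD, n = 2) and from 7.05 ± 1.66 to 4.04 ± 0.121 and 4.78 ± 0.527 in H1650. IL11 fell in PC9, from 23.4 ± 0.315 CPM at T0 with log2 fold changes of -2.75 with erlotinib and -2.02 with osimertinib, and CTF1 rose there by 2.37 and 1.92. IL6 stood at 1.52 ± 0.340 CPM in PC9 and 74.1 ± 1.59 in H1650 at T0. IL6 rose in PC9 by 1.00 and 1.33 and fell in H1650, by 1.08 with erlotinib and by 1.10 with osimertinib on the log2 scale. CLCF1 fell with erlotinib in PC9 and with both drugs in H1650 (-0.47, -0.72 and -0.63).

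Of 15 cytokine receptor genes, 14 were tested. In PC9, 5 rose and 3 fell with erlotinib (median log2 fold change 0.01, against 0.07 over all tested genes) and 6 rose and 3 fell with osimertinib (0.34 against 0.06), where 32.7% of all tested genes rose with each drug and 29.1% and 28.7% fell. In H1650, 1 rose and 3 fell with erlotinib (median -0.01 against 0.01) and 1 rose and 4 fell with osimertinib (-0.02 against 0.00), where 18.0% and 17.8% of all tested genes rose and 18.5% and 17.9% fell. IL4R, the receptor chain that leads to STAT6, stood at 174 ± 4.43 CPM in PC9 at T0 and fell by 2.08 and 1.74 with erlotinib and osimertinib, and in H1650 it changed by 0.13 and 0.02 and was not called. IL11RA rose in PC9 by 1.54 and 1.23 and in H1650 with osimertinib by 0.38 (0.36 with erlotinib, not called). IFNLR1, the specific receptor chain of type III interferons, rose with osimertinib in PC9 (0.91) and with erlotinib in H1650 (0.68). Of the 4 JAK kinase genes, JAK1, JAK3 and TYK2 rose in PC9 with both drugs and JAK2 was not called in any comparison with T0. JAK1, which serves most of these receptors, rose in PC9 by 0.87 and 0.99 and fell in H1650 by 0.44 with each drug. JAK3 went from 4.62 ± 0.386 CPM in PC9 at T0 to 27.8 ± 3.58 and 26.7 ± 3.23, and H1650 libraries held 1 to 3 reads.

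Of 19 other STAT, IRF and SOCS genes, 18 were tested. In PC9, 6 rose and 4 fell with erlotinib and 7 rose and 5 fell with osimertinib, and in H1650, 8 rose and 1 fell with erlotinib and 9 rose and 2 fell with osimertinib (medians 0.18, 0.12, 0.20 and 0.21, against 0.07, 0.06, 0.01 and 0.00 over all tested genes). Of all tested genes, 32.7% rose and 29.1% fell with erlotinib in PC9, 32.7% and 28.7% with osimertinib, 18.0% and 18.5% with erlotinib in H1650, and 17.8% and 17.9% with osimertinib. STAT5A rose in all 4 comparisons, by 2.17 and 2.06 in PC9 and by 0.81 and 0.68 in H1650. SOCS2, an inhibitor of growth hormone signaling, fell with osimertinib in PC9 (-0.42) and with both drugs in H1650 (-0.93 and -1.80). IRF2BPL, a gene named for its likeness to IRF2-binding proteins, rose in all 4 by 0.45 to 0.81. Of 8 STAT phosphatase and PIAS genes, 3 rose and 2 fell in PC9 with erlotinib, 3 and 3 with osimertinib, 1 and 3 in H1650 with erlotinib, and 2 and 2 with osimertinib (medians 0.12, 0.10, -0.17 and 0.03), against the same shares of all tested genes. PTPN6, the phosphatase SHP-1, rose in all 4 by 0.76 to 0.98, and PTPN11, the phosphatase SHP-2, fell in all 4, with log2 fold changes of -1.13 to -0.54. PTPN1 fell in all 4, at -0.67 to -0.19.

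Of 14 sensors and adaptors upstream of IRF3 and IRF7, 7 rose and 4 fell in PC9 with erlotinib, 9 and 4 with osimertinib, 7 and 2 in H1650 with erlotinib, and 7 and 3 with osimertinib (medians 0.29, 0.52, 0.14 and 0.27). Of all tested genes, 32.7%, 32.7%, 18.0% and 17.8% rose and 29.1%, 28.7%, 18.5% and 17.9% fell, in the same order. DHX58, a regulator of RNA sensing, rose in all 4 by 1.73 to 2.40, and TLR3, the endosomal receptor of double-stranded RNA, rose by 0.80 to 2.10. CGAS, the sensor of cytosolic DNA, fell in all 4, from 60.4 ± 1.22 to 16.4 ± 0.240 and 15.3 ± 0.426 CPM in PC9 and from 20.3 ± 1.34 to 13.8 ± 1.52 and 13.2 ± 0.266 in H1650.

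Target genes of the factors were counted in the same way, against 32.7% of all tested genes that rose with each drug in PC9 and 18.0% and 17.8% that rose with erlotinib and osimertinib in H1650, and 29.1%, 28.7%, 18.5% and 17.9% that fell. Of 25 ISGF3 target genes, 13 rose and 4 fell in PC9 with erlotinib (median log2 fold change 0.82), 18 rose and 2 fell with osimertinib (1.99), 24 rose and 0 fell in H1650 with erlotinib (1.12) and 25 rose and 0 fell with osimertinib (1.40). In H1650, 0 were lower at an unadjusted p under 0.05, and DESeq2 called 0 lower with either drug. RSAD2 and CMPK2 had reads in only 7 of the 12 libraries, and the lowest counts of IFI27 and BST2 were 1 and 2 reads. At T0, 24 of the 25 were called higher in H1650 than in PC9, against 35.8% of all tested genes. Genes with few reads are harder to call, so these counts do not compare the strength of the response between the lines. The 4 that fell with erlotinib in PC9, named here after their values were seen, were OAS3 (-2.36), USP18 (-1.34), OASL (-1.34) and SAMD9 (-0.45), and the 2 that fell with osimertinib were OAS3 (-1.97) and USP18 (-0.82). OAS3 makes the messenger that activates RNase L, and USP18 removes ISG15 from proteins. IFIT2, an antiviral protein, went from 3.24 ± 0.0221 CPM in PC9 at T0 to 18.5 ± 1.30 with erlotinib and rose by 3.94 on the log2 scale with osimertinib, and went from 45.7 ± 1.32 in H1650 to 99.2 ± 6.78 and 92.5 ± 7.29. IFITM1, a membrane protein that restricts virus entry, was at 0.375 ± 0.182 CPM in PC9 at T0 and reached 1.34 ± 0.0115 and 2.50 ± 0.662, and in H1650 it went from 9.30 ± 0.437 to 63.8 ± 0.134 and 93.5 ± 3.66. MX2 rose in PC9 by 3.21 and 3.97 and in H1650 with osimertinib by 1.18 (0.57 with erlotinib, not called). Of 20 IRF1 and gamma-activated target genes, 16 were tested, and 15 rose and 1 fell in PC9 with erlotinib (median 0.96), 14 and 2 with osimertinib (1.01), 13 and 1 in H1650 with erlotinib (0.71) and 13 and 1 with osimertinib (0.96). GBP2, a guanylate-binding protein, rose from 2.24 ± 0.531 CPM in PC9 to 16.9 ± 0.808 and 34.8 ± 0.505, and from 13.5 ± 0.669 in H1650 to 18.6 ± 1.49 and 25.2 ± 0.300. PSMB10, an immunoproteasome subunit, rose in all 4 by 1.25 to 2.41, and UBE2L6, the conjugating enzyme of ISG15, by 1.80 to 2.14. The genes that fell, also named after their values were seen, were TAP2 in PC9 (-0.99 and -0.97), WARS1 in PC9 with osimertinib (-0.62) and GBP1 in H1650 (-1.36 and -1.13).

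Of 18 STAT3 target genes, 11 were tested. In PC9, 8 rose and 1 fell with erlotinib (median 0.55) and 7 rose and 3 fell with osimertinib (0.41). In H1650, 6 rose and 3 fell with erlotinib (0.42) and 8 rose and 1 fell with osimertinib (0.39). Of all tested genes, 32.7% rose and 29.1% and 28.7% fell with erlotinib and osimertinib in PC9, and 18.0% and 17.8% rose and 18.5% and 17.9% fell in H1650. TIMP1, an inhibitor of metalloproteinases named after its values were seen, fell in all 4 (-1.48, -0.81, -0.33 and -0.35). MUC1, a membrane mucin, rose in all 4, from 7.94 ± 0.753 CPM in PC9 to 79.2 ± 0.274 and 133 ± 3.37, and from 119 ± 1.12 in H1650 to 172 ± 10.5 and 216 ± 2.72. LRG1, a secreted glycoprotein, rose by 0.28 and 0.81 in PC9 and by 3.32 and 4.01 in H1650, where STAT3 itself changed by -0.19 and 0.17. CEBPD, a transcription factor of the acute phase response, rose by 1.60 and 2.16 in PC9 and by 0.65 with osimertinib in H1650 (0.23 with erlotinib, not called). Of 8 STAT6 target genes, 5 were tested, and 1 rose and 1 fell in PC9 with erlotinib and 3 rose with osimertinib. In H1650, 0 were called with erlotinib by edgeR (1 at an unadjusted p under 0.05, 0 by DESeq2) and 2 rose with osimertinib. SERPINB2 and SERPINB3 of this list had reads in only 6 of the 12 libraries, and the list median in H1650 was 0 with each drug. A gene without reads in a line cannot be called there, so the 0 called is partly fixed by low reads. ALOX15, a lipoxygenase induced by interleukin-4, rose from 1.27 ± 0.0543 CPM in PC9 to 9.67 ± 0.566 and 12.5 ± 0.543, and rose with osimertinib in H1650 (1.92, adjusted p = 0.0291) from 2 to 3 reads per library to 7 to 11. CISH, which also stands in the list of other SOCS genes, rose with osimertinib in PC9 (1.01) and H1650 (0.56).

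**Figure D4:**
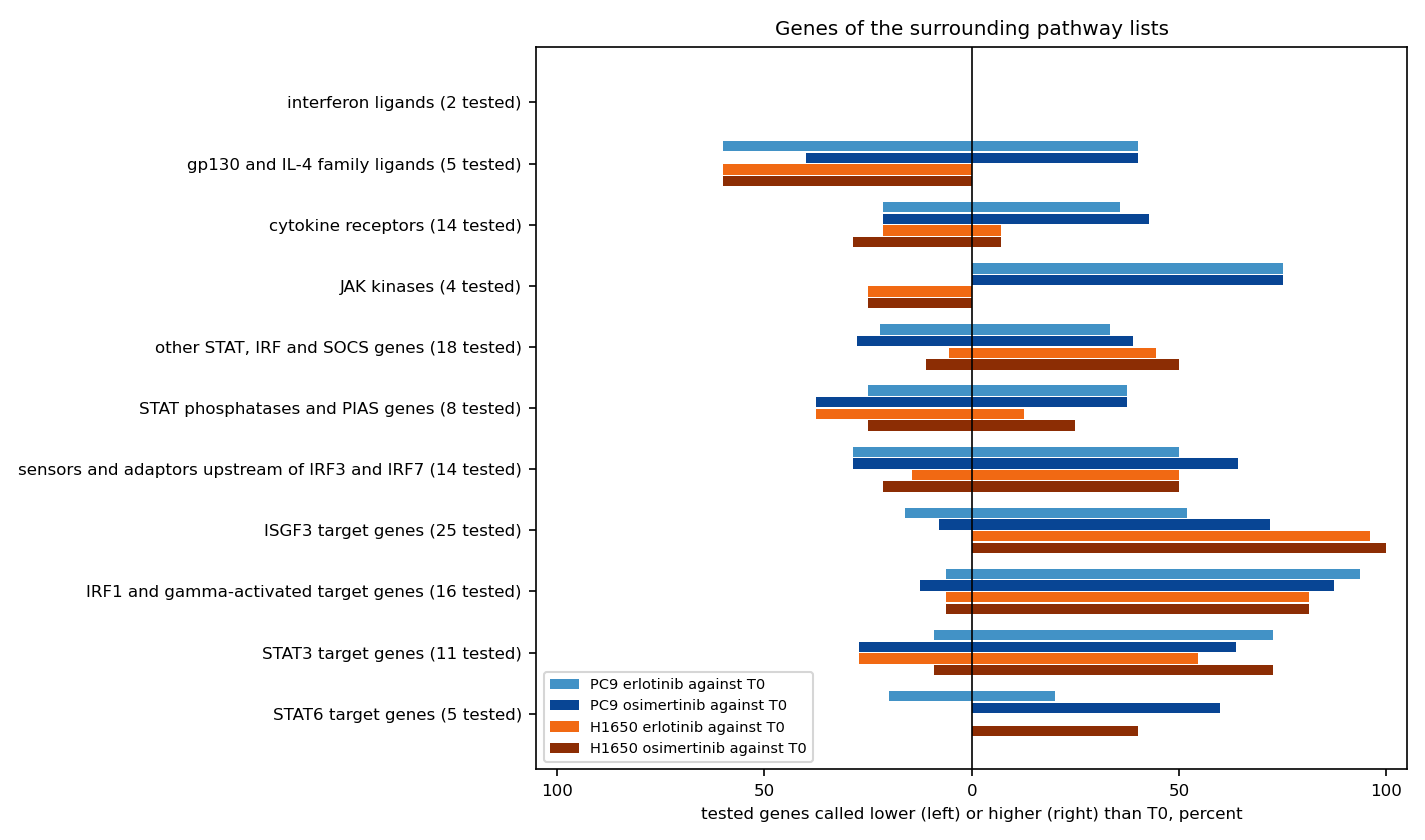
Percent of the tested genes of each list that were called higher (right of 0) or lower (left of 0) than T0, with a bar for each line and drug. The ISGF3 target genes reach 25 of 25 higher with osimertinib in H1650 and 13 of 25 higher with 4 lower with erlotinib in PC9, and the 2 tested interferon ligands have no bar. Genes with few reads in a line, some ISGF3 targets among them, are harder to call there.

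Among the epithelial markers, 4 rose and 3 fell in PC9 with erlotinib, 4 and 2 with osimertinib, 3 and 4 in H1650 with erlotinib and 7 and 1 with osimertinib. They stand against 32.7%, 32.7%, 18.0% and 17.8% of all tested genes that rose and 29.1%, 28.7%, 18.5% and 17.9% that fell. Of the 8 tested blood, endothelial and fibroblast markers, 5 rose and 1 fell in PC9 with erlotinib, 6 and 1 with osimertinib, 1 and 1 in H1650 with erlotinib and 2 and 2 with osimertinib. The endothelial cadherin CDH5 rose in PC9 from 0.673 ± 0.0252 to 2.49 ± 0.0937 and 3.15 ± 0.463 CPM, and its H1650 libraries held 0 to 7 reads, with calls higher after both drugs. The myeloid integrin ITGAM rose in PC9 from 3.83 ± 0.789 to 6.34 ± 0.349 and 17.4 ± 1.22 CPM, and its H1650 libraries held 0 to 4 reads, with a call lower after osimertinib. The myeloid receptor CSF1R rose in PC9 by 1.12 and 1.87 on the log2 scale, from 1.37 ± 0.0148 CPM at T0, and fell in H1650 from 54.6 ± 2.79 to 19.6 ± 0.0643 and 24.4 ± 1.16 CPM. The part of these markers in the results above was not tested.

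The pattern of each gene over the 12 libraries, as log2(CPM + 0.5) centred on the mean of its line, was set against the patterns of 10294 genes with a mean of at least 10 CPM. The 3 nearest by Pearson's r were HBP1, GRAMD2A and CTSO for STAT2 (r = 0.997 to 0.996), CD24, PPL and GPRC5A for STAT3 (0.996 to 0.991), FAM102A, CYP4F3 and APOL3 for STAT6 (0.992 to 0.990), and GPNMB, ANXA4 and PBXIP1 for IRF1 (0.994 for each). They were TANK, PSME1 and ACSS1 for IRF2 (0.985 to 0.979), NRSN2, RRAGC and KLC3 for IRF7 (0.942 to 0.940), ZNF83, SRSF6 and ANKRA2 for IRF9 (0.970 to 0.967), and NAP1L4, ARHGAP1 and LMNA for SOCS3 (0.977 to 0.964). The libraries share groups, so such values are common. In all, 1393 of these genes had an r over 0.9 with STAT2, 1248 with IRF1, 813 with STAT3, 486 with IRF2, 446 with STAT6, 388 with IRF9, 78 with SOCS3 and 6 with IRF7. The IRF7 pattern rests on 1 to 10 reads in each H1650 library, so its neighbours and its count are less certain.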

How the data were processed

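The authors processed reads with the DolphinNext pipeline and deposited whole-number counts of reads per gene, without normalization, with gene lengths. Per the labels the build was GRCh38, and the authors ran DESeq2. Aligner, annotation, counting versions and strandedness are not given in the sources used here. Here, counts of all 12 libraries were fitted in R 4.3.3 with edgeR 4.0.16 (filter by group, TMM, quasi-likelihood test on 6 groups, 11 contrasts), with Benjamini-Hochberg adjustment over 19108 genes and calls at adjusted p under 0.05. Intervals are 95%. The 8 genes and the lists were chosen with earlier results of these data known. Named list genes are the 3 with the largest mean log2 fold change in size over the 4 drug comparisons among those called in at least 2 and with a mean of at least 1 CPM, while ligands and JAK kinases were all named or counted. IL6, CLCF1 and JAK2 come under the latter. Replicates differed by 3.86 to 6.84 in chi-square per gene, beyond sampling noise. On simulated data, edgeR recovered 179 of 200 genes changed by a log2 of 1 with 11 false calls among 16488 tested, for erlotinib in PC9. There every group took the PC9 T0 levels, and only genes over 1 CPM were changed. The spread was the trend of the fit with level, without the spread particular to each gene. In the real comparison 32.7% of all tested genes were called higher and 29.1% lower, so the false calls of the simulation do not carry over. Alternatives were DESeq2 1.42.0, RLE and upper quartile scaling, 2 other filters, an adjusted p under 0.01, a fit per line, a replicate block and leaving out each library. Reference positions are GENCODE 29 and promoters RefSeq. In the count table RIGI is listed as DDX58.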

Additional observations from a re-analysis of the deposited data

Results flagged for a closer look

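The difference itself was tested by the interaction of drug and line. By this test the change against T0 differed between H1650 and PC9 for 4 of the 7 genes other than IRF7 with each drug. Of all tested genes, 21.1% were called higher and 19.8% lower for the erlotinib difference, and 21.5% and 20.5% for the osimertinib difference. With erlotinib, the change in H1650 minus that in PC9 was -1.26 for STAT2, -1.17 for STAT3, -1.06 for IRF1 and 0.62 for SOCS3 on the log2 scale. With osimertinib it was -1.69 for STAT2, -1.04 for STAT3, -1.04 for IRF1 and 0.67 for SOCS3. The fitted values for IRF7, -2.37 and -2.03, rest on 1 to 10 reads in each H1650 library, depend on the prior count of the fit and are not counted as a difference. No group had the 4 libraries that a check for a library far from the others needs.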

How the results depend on the processing

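The 8 genes gave 85 log2 fold changes, recomputed 1652 times in all under the alternatives. Of these values, 1570 kept the direction and side of the threshold, 61 lost the call, 3 gained one and 18 changed sign, all 18 without a call. Sign changes when libraries were left out lay within -0.35 to 0.24 for SOCS3 with osimertinib in H1650, -0.414 to 0.0142 for the IRF9 erlotinib difference, -0.13 to 0.10 for the IRF2 osimertinib difference, -0.233 to 0.0130 for IRF7 and -0.0900 to 0.0760 for STAT2 between the treatments (PC9 and H1650), and -0.0421 to 0.0891 for STAT3 after erlotinib and -0.46 to 0.13 for SOCS3 after osimertinib between the lines. The others were 0.0515 for the IRF2 osimertinib difference without a filter, 0.000680, 0.00610 and 0.000880 for STAT2 between the treatments in H1650 (RLE, no filter, DESeq2) and -0.0430 for STAT3 between the lines after erlotinib (upper quartile). With IRF7 counted, at an adjusted p under 0.01, 3 genes in place of 5 were called for the erlotinib difference and 2 in place of 5 between the treatments in PC9. Leaving out a library gave 3 to 5 for the first, 2 to 5 for the second and 1 to 3 between the treatments in H1650. Whether replicate numbers pair the libraries was not settled: 7 of 15 pairs of groups, all 3 within PC9 among them (0.118 to 0.185), had a correlation of deviations over 0.1 and the others did not (range -0.0635 to 0.245), and the labels give no shared day or batch. With the replicate block, STAT6 between the treatments in H1650 gained a call (0.20, adjusted p = 0.0296), as with DESeq2 (0.21, adjusted p = 0.0498), and no other call on the 8 genes changed. The cause of these changes was not tested. No scaling moved the median of all genes by over 0.1 on the log2 scale. Of the 624 list counts under 6 alternatives, 35 moved by over 1.5 times: 13 of the blood, endothelial and fibroblast markers, 9 of the STAT6 targets, 6 of the phosphatases and PIAS genes, 4 of the receptors (all for H1650, higher), 2 of the other STAT, IRF and SOCS genes (PC9 osimertinib, lower) and 1 of the STAT3 targets (H1650 osimertinib, lower). They were not recomputed with libraries left out. IRF7 was not tested with at least 10 counts in every library or in the fit of H1650 alone.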
